A study of Mus musculus with 16 samples.

Results

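The proteasome is the protease complex that degrades ubiquitin-tagged proteins, and its genes were followed here in the left ventricle of mice during the week after abdominal surgery. Members were the protein-coding genes whose symbol begins with Psma, Psmb, Psmc, Psmd or Psme and a digit, and whose mean level over all libraries was at least 0.5 TPM. TPM is the share of transcripts, after scaling by gene length, that a gene holds in a library among the genes of the table. Of 57143 genes in the table, 46 matched the name and 45 passed the threshold. Psmb11, which encodes the catalytic subunit of the thymus proteasome, did not pass, at a mean of 0.0031 TPM, and the member nearest inside was Psma8 at 1.10 TPM. The 45 genes comprised 8 of the 20S alpha ring, 4 beta subunits without catalytic sites, 3 constitutive catalytic beta subunits, 3 inducible catalytic subunits of the immunoproteasome, 6 ATPases and 11 other subunits of the 19S cap, 3 chaperones of 19S assembly and 5 activators. The remaining 2, Psmc3ip and Psme3ip1, matched the name but encode partners of proteasome proteins and are no subunits. All 46 name matches were found in the GENCODE M21 annotation of GRCm38, on 16 chromosomes.

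In the 26S proteasome, a 20S barrel made of outer alpha and inner beta rings holds the proteolytic sites, and the 19S cap binds ubiquitin chains, removes them, unfolds the substrate with a ring of ATPases and opens the alpha-ring gate. In cells exposed to interferon, Psmb8, Psmb9 and Psmb10 replace the constitutive sites Psmb5, Psmb6 and Psmb7 in newly made particles and alter the peptides cut for MHC class I presentation, while Psme1 and Psme2 form the PA28 cap. In heart muscle the complex clears damaged and surplus sarcomere proteins, and the transcription factor NFE2L1 is known to raise its subunit genes together when proteasome activity is low.

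The libraries came from polyadenylated RNA of left ventricular myocardium of male C57BL/6 mice that had abdominal surgery under sevoflurane, a volatile anaesthetic, and tissue was taken at 0h, 3h, 24h and 7d, with 4 libraries at each time. All 4 groups, 0h included, carry the same treatment label, so no group is labelled as unoperated or as anaesthetised without surgery, and effects of surgery, anaesthesia and time of day cannot be told apart. The labels give no genotype beyond the strain and no age. They also do not say whether each library was a separate animal, so the p-values measure the spread between these libraries.

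Totals ran from 8.31 to 12.9 M counts per library, and the defining ventricular cardiomyocyte genes were abundant throughout, with a summed level between 58710 and 80170 TPM. Myl7, an atrial myosin light chain, was at 9.59 TPM or less in every 0h library and at 0.844 or less at 7d. It reached 146 TPM in 3h replicate 3 and 63.8, 126, 6.97 and 159 TPM in 24h replicates 1 to 4. Neutrophil markers summed to between 11.1 and 13.2 TPM at 0h, 151 to 570 at 3h, 69.4 to 330 at 24h and 17.7 to 109 at 7d.

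Together the 45 genes held 5283 ± 31.3 TPM at 0h (mean ± SD, n = 4), 5524 ± 193 at 3h, 6161 ± 488 at 24h and 5688 ± 184 at 7d. The 24h libraries ranged from 5625 to 6666 TPM and lay above all 0h libraries, which ranged from 5251 to 5322 TPM. Levels per gene spanned a wide range within each subcomplex. In the alpha ring, means over all 16 libraries ran from 1.10 TPM for Psma8, a subunit best known from testis, to 397 TPM for Psma6. The constitutive catalytic genes lay close together, with Psmb7 at 198 TPM, Psmb5 at 219 and Psmb6 at 268. Among the inducible catalytic genes Psmb10 was at 89.1 TPM, Psmb8 at 18.7 and Psmb9 at 8.37. The beta subunits without catalytic sites ran from Psmb1 at 111 TPM to Psmb4 at 291. The 19S ATPases ran from Psmc2 at 68.2 TPM to Psmc3 at 349, and the other 19S subunits from Psmd11 at 42.9 to Psmd2 at 206. The assembly chaperones had the lowest median of the groups, from 9.05 TPM for Psmd9 to 30.9 for Psmd10. Activators ran from 17.3 TPM for Psme2b to 173 for Psme1. The spread between libraries of 1 time was larger at 24h, where the median coefficient of variation over the 45 genes was 12.0%, than at 0h, where it was 6.43%.

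At 24h most genes of the 20S barrel and the 19S cap were higher than at 0h on TMM-scaled counts, while none of the 3 inducible catalytic genes passed the test. Of the 45 members, 26 rose and 0 fell in edgeR's quasi-likelihood test with Benjamini-Hochberg adjustment at 0.05, against 9.2% of all 16866 genes tested that rose and 8.19% that fell. All 31 members with an unadjusted p under 0.05 in edgeR were higher, and 32.4% of all genes had such a p. The median difference of the members was 0.39 on the log2 scale (TMM-scaled counts), and that of all genes tested was -0.01. Differences were small for single genes, the largest being 1.84-fold for Psmd4. By subcomplex, 12 of the 15 constitutive 20S genes, 12 of the 17 subunits of the 19S cap, 1 of 3 assembly chaperones, 1 of 5 activators and 0 of 3 inducible catalytic genes passed the test. The count was 13 without 24h replicate 1, 13 without 24h replicate 4, 16 without 0h replicate 1 and 17 without 0h replicate 2. In this and the other comparisons, the shares of all genes called in fits without 1 library are not given here. A change in the members therefore cannot be told from a change over all genes. With Myl7 as a covariate the count of members was 0, in a fit that called few of all genes, as counted further below. The median of the members in that fit was 0.33 and 39 of 45 were positive. Myl7 was itself higher in most 24h libraries than at 0h, so this fit cannot tell the time from Myl7. Without the 4 libraries rich in Myl7, which leaves 1 library at 24h, the median was 0.18 and 40 of 45 were positive.

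**Figure D1:**
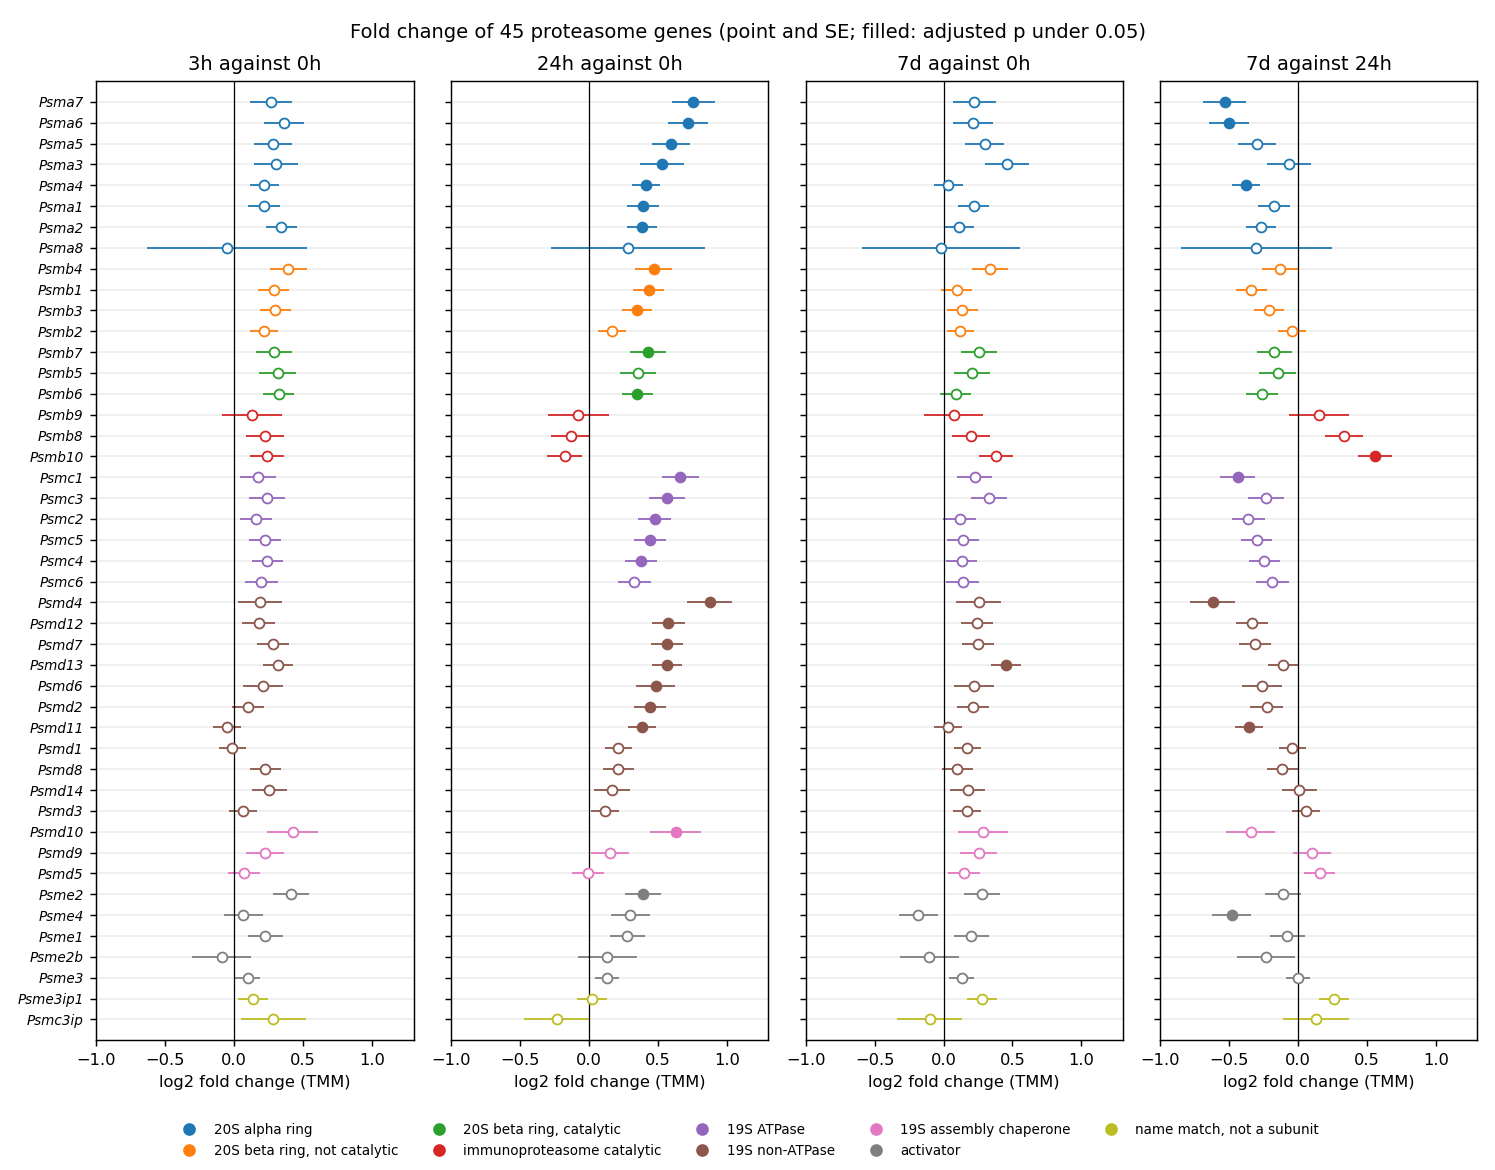
Log2 fold change (x axis, TMM-scaled counts) of each of the 45 genes (y axis, grouped and coloured by subcomplex) in 4 comparisons, with bars of 1 standard error and filled points where edgeR's adjusted p was under 0.05. In the panel of 24h against 0h, 26 points are filled and all lie right of 0, while the 3 inducible catalytic genes lie left of 0 and are open.

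The subunit with the largest difference was Psmd4, the ubiquitin receptor of the 19S cap (chr3:95032694-95042614, minus strand, GRCm38). Psmd4 was at 122, 119, 125 and 116 TPM in the 4 libraries of 0h, at 131, 119, 118 and 113 at 3h, at 212, 177, 149 and 214 at 24h, and at 127, 176, 111 and 123 at 7d. All 24h libraries lay above all 0h and 3h libraries, and 7d replicate 2 reached the 24h range. The log2 difference of 24h from 0h was 0.88 ± 0.16 (SE; edgeR adjusted p = 0.00136). It was 0.75 or more in each of the 16 fits that left out 1 library, and every one of those fits called it. It was 0.75 with Myl7 as a covariate, which was not called. It was 0.40 without the 4 libraries rich in Myl7, which leaves 1 library at 24h.

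Psmc1, an ATPase of the ring that threads substrates into the barrel (chr12:100110154-100123405, plus strand), was at 244, 239, 241 and 220 TPM at 0h and at 328, 318, 268 and 359 at 24h. The groups did not overlap, and the log2 difference was 0.66 ± 0.13 (edgeR adjusted p = 0.00163). Psmd12, a scaffold subunit of the lid (chr11:107479484-107504362, plus strand), was at 129, 112, 136 and 123 TPM at 0h and at 170, 145, 144 and 175 at 24h. It differed by 0.58 ± 0.12 (edgeR adjusted p = 0.00219), again without overlap. The same holds for Psmd13, another lid subunit, at 65.2, 66.8, 62.3 and 62.2 TPM against 90.3, 75.9, 76.8 and 81.0 (log2 difference 0.56 ± 0.11, edgeR adjusted p = 0.00151). Psmd7, the partner of the deubiquitinase in the lid, was at 166, 163, 175 and 164 TPM at 0h and at 220, 203, 193 and 228 at 24h (0.57 ± 0.12, edgeR adjusted p = 0.00240).

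The sequences upstream of 3 of these genes, which moved together, are shown beside that of Psmb10, which did not move with them. Each is the RefSeq window of up to 250 bases before the start on GRCm38.p6, trimmed to the bases that no annotated exon covers, written 5′ to 3′ on the gene's strand. The windows are chr3:95042615-95042864 (minus) for Psmd4, chr12:100109952-100110153 (plus) for Psmc1, chr11:107479278-107479483 (plus) for Psmd12 and chr8:105938445-105938642 (minus) for Psmb10. Capitals mark matches to any of 4 motifs searched on both strands: TGACNNNGC (antioxidant response element), CCAAT (NF-Y box), GAAA followed after any 2 bases by GAAA (interferon response element) and TTCNNNGAA (STAT element).
Psmd4: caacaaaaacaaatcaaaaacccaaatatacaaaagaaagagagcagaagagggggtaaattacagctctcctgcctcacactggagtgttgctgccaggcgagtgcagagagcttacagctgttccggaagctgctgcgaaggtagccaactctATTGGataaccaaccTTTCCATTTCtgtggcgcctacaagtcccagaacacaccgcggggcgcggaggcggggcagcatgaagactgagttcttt
Psmc1: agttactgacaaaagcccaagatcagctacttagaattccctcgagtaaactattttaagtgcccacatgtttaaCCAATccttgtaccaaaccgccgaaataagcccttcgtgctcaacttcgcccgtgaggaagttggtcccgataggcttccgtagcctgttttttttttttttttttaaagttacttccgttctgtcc
Psmd12: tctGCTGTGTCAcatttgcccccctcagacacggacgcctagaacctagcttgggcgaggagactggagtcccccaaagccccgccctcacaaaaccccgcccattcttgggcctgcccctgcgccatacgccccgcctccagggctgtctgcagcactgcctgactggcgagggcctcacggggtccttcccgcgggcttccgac
Psmb10: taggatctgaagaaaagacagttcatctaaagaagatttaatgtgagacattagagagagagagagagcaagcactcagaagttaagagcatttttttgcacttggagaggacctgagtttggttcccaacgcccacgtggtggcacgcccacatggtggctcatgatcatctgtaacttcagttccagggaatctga
Psmd4 carried a CCAAT box on the reverse strand, 95 to 91 bases before the start, and a match to the interferon element, 80 to 71 bases before it. Psmc1 carried 1 CCAAT box, Psmd12 a single antioxidant element on the reverse strand, and the Psmb10 window held none of the 4. RefSeq promoters were found for 38 of the 45 members, as 42 windows. The antioxidant element stood in 11.9% of these and in 10.2% of all 32851 promoters of the same length. The CCAAT box stood in 35.7% against 33.8%, the interferon element in 7.14% against 2.98%, which is 3 windows, and the STAT element in 2.38% against 7.02%. A match is a description of the letters and no evidence of a bound factor.

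In the 20S barrel, 7 of 8 alpha genes rose at 24h. Psma7 was at 136, 149, 150 and 161 TPM at 0h and at 250, 199, 162 and 243 at 24h, a log2 difference of 0.76 ± 0.16 (edgeR adjusted p = 0.00261). Psma6 was at 352, 330, 347 and 350 TPM at 0h, at 400, 355, 388 and 410 at 3h, at 533, 427, 372 and 586 at 24h, and at 367, 393, 369 and 368 at 7d. All libraries after 0h lay above all 0h libraries for Psma6, and 24h replicates 1 and 4 were the highest. The difference of 24h from 0h was 0.72 ± 0.15 (edgeR adjusted p = 0.00227). The other alpha genes that rose, Psma1 to Psma5, differed by 0.39 to 0.60. Psma8 was the exception, with 1 to 21 counts per library and a log2 difference of 0.29 ± 0.56. Of the beta genes without catalytic sites, Psmb1, Psmb3 and Psmb4 rose by 0.35 to 0.47 and Psmb2 had a difference of 0.17 ± 0.10 (edgeR adjusted p = 0.263).

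The constitutive catalytic genes differed by 0.35 to 0.43, within the range of the other 20S genes, and a difference between these groups was not tested. Psmb7, the trypsin-like site, was at 171, 180, 193 and 183 TPM at 0h and at 240, 185, 196 and 215 at 24h. It rose by 0.43 ± 0.13 on the log2 scale (edgeR adjusted p = 0.0245), but the groups overlapped, and the call was lost without 0h replicate 1 (0.38), 0h replicate 2 (0.43), 24h replicate 1 (0.32) or 24h replicate 4 (0.37). Psmb6, the caspase-like site, was at 248, 250, 259 and 267 TPM at 0h and at 291, 285, 245 and 295 at 24h. It rose by 0.35 ± 0.11 (edgeR adjusted p = 0.0362), also with overlap, and was called in 11 of the 16 fits that left out 1 library. It was not called without 0h replicates 1, 2 or 3 (0.31, 0.35 and 0.35) or without 24h replicates 1 or 4 (0.29 and 0.27). Psmb5, the chymotrypsin-like site, was at 190, 218, 206 and 206 TPM at 0h and at 277, 213, 198 and 210 at 24h. Only 24h replicate 1 lay above the 0h range, and the difference of 0.36 ± 0.13 did not pass (edgeR adjusted p = 0.0624). It passed without 24h replicate 2 (0.42) or 24h replicate 3 (0.45). An exact permutation test of log2(TPM + 1) over the 4 libraries on each side, two-sided, gave p = 0.457 for Psmb5, 0.143 for Psmb6 and 0.0571 for Psmb7, where 0.0286 is the smallest p this design allows.

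Within the 19S cap, 5 of 6 ATPases rose. Psmc3 was at 299, 327, 304 and 317 TPM at 0h and at 413, 395, 366 and 405 at 24h, without overlap, a log2 difference of 0.56 ± 0.13 (edgeR adjusted p = 0.00498). Psmc2, Psmc4 and Psmc5 rose by 0.38 to 0.48, and Psmc6 had a difference of 0.33 ± 0.12 (edgeR adjusted p = 0.0593). Among the 11 other subunits, the ones that rose beside Psmd4, Psmd7, Psmd12 and Psmd13 were Psmd2, Psmd6 and Psmd11. Psmd2 is the base scaffold that docks ubiquitin shuttle factors, and its 24h libraries at 225, 208, 242 and 237 TPM lay above the 0h libraries at 198, 195, 194 and 197. Psmd14, the deubiquitinase of the lid, did not pass, with a difference of 0.17 ± 0.13 (edgeR adjusted p = 0.387). Psmd1, Psmd3 and Psmd8 did not pass either, with differences of 0.12 to 0.21. In TPM, 10 of the 45 members had 24h libraries all above the 0h libraries, against 4.25% of all genes tested, and 1, Psmb10, had them all below, against 17% of all genes.

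**Figure D2:**
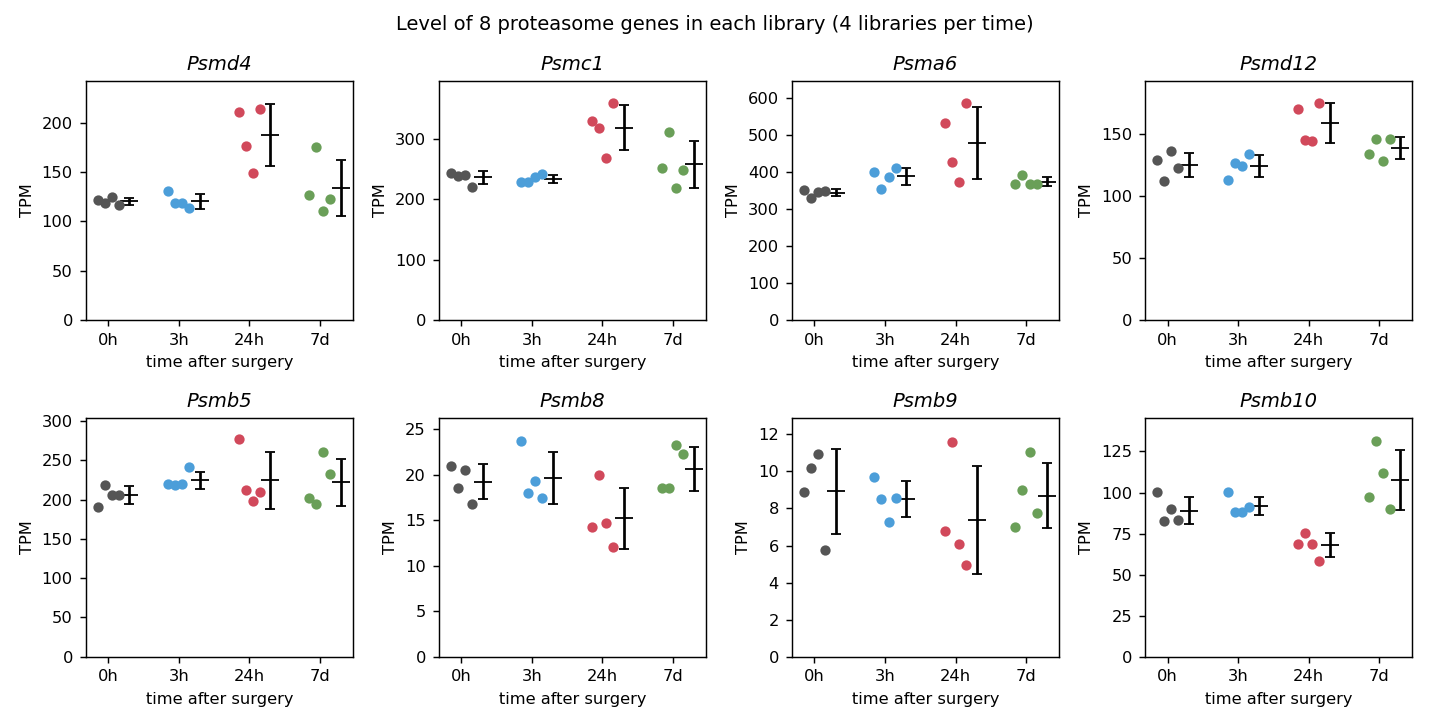
Level in TPM (y axis, from 0) of 8 proteasome genes in each of 16 libraries (points, replicates 1 to 4 from left to right) at 0h, 3h, 24h and 7d, with the mean and SD of the 4 libraries beside them. Psmd4, Psmc1, Psma6 and Psmd12 are highest at 24h with all 24h points above the 0h points, and Psmb10 is lowest at 24h, between 58.2 and 75.7 TPM.

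The inducible catalytic genes had differences of the other sign at 24h. Psmb10 (chr8:105935735-105938444, minus strand) was at 100, 82.5, 90.2 and 83.1 TPM at 0h, at 100, 88.2, 88.1 and 91.3 at 3h, at 68.9, 75.7, 68.7 and 58.2 at 24h, and at 97.4, 131, 112 and 90.1 at 7d. The 24h libraries lay below every library of the other times. On TMM-scaled counts Psmb10 was 0.18 ± 0.12 lower than at 0h on the log2 scale, which did not pass (edgeR adjusted p = 0.346). It fell by 0.41 ± 0.12 from 3h (edgeR adjusted p = 0.0422) and rose by 0.55 ± 0.12 from 24h to 7d (edgeR adjusted p = 0.00644). The rise to 7d was called in all 16 fits that left out 1 library. The fall from 3h was called in 5 of them, those without 24h replicate 1 or a 7d library, and over the 16 the difference ran from -0.47 to -0.33. On log2(TPM + 1), the exact two-sided permutation test gave p = 0.0286, the smallest it allows, for 24h against 0h, against 3h and against 7d. On that scale the median of all genes was itself -0.19 at 24h against 0h, and -0.02 at 24h against 3h. In TPM, 17% of all genes tested had their 24h libraries all below the 0h libraries.

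Psmb8 was at 20.96, 18.6, 20.5 and 16.8 TPM at 0h, at 23.7, 18.0, 19.3 and 17.4 at 3h, at 14.2, 19.9, 14.7 and 12.0 at 24h, and at 18.6, 18.5, 23.2 and 22.2 at 7d. The 24h replicates 1, 3 and 4 were the lowest of all 16 libraries and 24h replicate 2 lay within the 0h range. The log2 difference of 24h from 0h was -0.13 ± 0.14 (edgeR adjusted p = 0.557). Psmb9 was at 8.86, 10.2, 10.9 and 5.75 TPM at 0h, at 9.69, 8.53, 7.27 and 8.54 at 3h, at 6.77, 11.6, 6.10 and 4.97 at 24h, and at 6.99, 8.98, 11.03 and 7.75 at 7d. Its groups overlapped throughout, and the difference at 24h was -0.08 ± 0.22 (edgeR adjusted p = 0.847). Neither Psmb8 nor Psmb9 passed in any of the 5 comparisons.

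Set against the constitutive subunit that each replaces, within the same library, the inducible subunits were lowest at 24h. Psmb10 stood at 58.7, 45.7, 46.7 and 45.3 TPM per 100 TPM of Psmb7 at 0h, at 57.8, 46.1, 44.6 and 41.2 at 3h, at 28.8, 40.9, 35.0 and 27.1 at 24h, and at 52.9, 68.1, 48.3 and 43.8 at 7d. The 24h ratios did not overlap those of any other time. Psmb8 per 100 TPM of Psmb5 had medians of 9.22 at 0h, 8.50 at 3h, 6.58 at 24h and 9.36 at 7d, and its 24h range, 5.13 to 9.36, overlapped the 0h range, 8.16 to 11.01. Psmb9 per 100 TPM of Psmb6 had medians of 3.82, 3.00, 2.41 and 3.30 in the same order and overlapped throughout. These ratios are a description without a test, and they show unequal levels within a library.

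**Figure D3:**
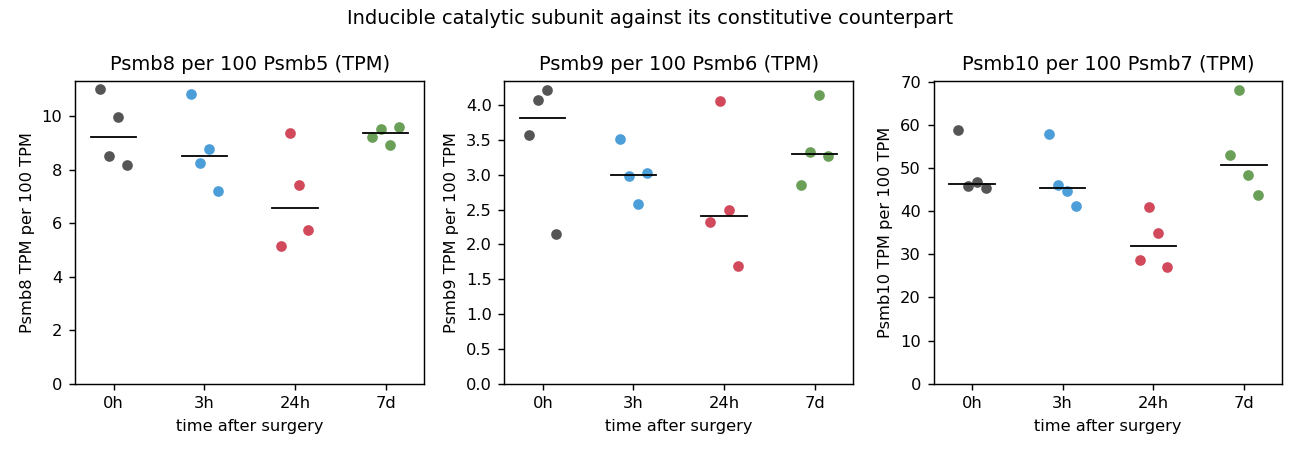
Level of Psmb8, Psmb9 and Psmb10 per 100 TPM of the constitutive subunit each replaces (y axis, from 0), in each of 16 libraries by time, with a line at the median of 4. The 24h points of Psmb10 per 100 Psmb7 lie between 27.1 and 40.9, below all points of the other times, and the other ratios overlap between times.

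Activators and assembly chaperones held 2 of the 26 genes that rose at 24h. Psme2, the beta subunit of PA28, was at 115, 121, 99.2 and 129 TPM at 0h and at 138, 146, 113 and 126 at 24h, with overlap. It rose by 0.39 ± 0.13 (edgeR adjusted p = 0.0434), a call that 7 of the 16 fits without 1 library kept, with differences from 0.32 to 0.49. It was lost without 0h replicates 1, 2 or 3, 3h replicates 2, 3 or 4, or 24h replicates 1, 2 or 4. Its partner Psme1 was at 167 ± 19.2 TPM at 0h (n = 4), 172 ± 8.38 at 3h, 174 ± 10.7 at 24h and 180 ± 38.7 at 7d, and did not pass in any comparison. Psme3, which forms the nuclear PA28 gamma cap, had a log2 difference of 0.13 ± 0.09 at 24h. Psme4, the PA200 cap, was at 127, 129, 185 and 128 TPM at 24h, where replicate 3 stood apart, and at 120, 78.2, 104 and 142 at 7d. Psme4 fell by 0.48 ± 0.14 from 24h to 7d (edgeR adjusted p = 0.0344), was called in 9 of the 16 fits without 1 library, and had a difference of -0.38 without 24h replicate 3, which was not called. The call was also lost without 3h replicate 2, 24h replicates 1 or 4, or 7d replicates 1, 2 or 3, where the difference ran from -0.50 to -0.36. Psmd10, a chaperone of the ATPase ring also known as gankyrin, was the only chaperone of 3 to rise at 24h, from 26.7 ± 4.67 to 35.0 ± 6.74 TPM (n = 4 each; log2 difference 0.63 ± 0.18, edgeR adjusted p = 0.0207). Psmd5 and Psmd9 had differences of -0.01 and 0.15. The 2 name matches that are no subunits, Psmc3ip and Psme3ip1, did not pass in any comparison.

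At 3h no member passed the test in either direction, where 1.86% of all genes tested rose and 3.18% fell. On TMM-scaled counts 41 of 45 members were positive, with a median log2 difference of 0.22 against 0.00 for all genes. The median was 0.15 on library totals and 0.04 on log2(TPM + 1), where 31 were positive and the median of all genes was -0.15. At an unadjusted p under 0.05, edgeR counted 15 members, which is 33.3% of them, and 22.1% of all genes. With the trend of fold change on gene length removed, the members' median was 0.15 against 0.01 for all genes, with 43 positive. In that fit 7 members had an unadjusted p under 0.05, and the share of all genes at that p is not given here. Over all genes the removed trend at 3h fell from 0.19 to 0.0016 between the shortest and longest of the gene lengths examined. After adjustment DESeq2 called 5 members and 3.69% of all genes higher, limma-voom with array weights 10 and 6.78%, and edgeR on only the 2 groups compared 21 and 8.97%. Neutrophil markers rose at 3h in 7 of 8 tested, and Myl7 was high in 3h replicate 3. Their part in these values was not tested beyond the fits with Myl7 and without the libraries rich in it, in which the median was 0.18 and 0.24. Smallest in p were Psma2 at 0.34 (edgeR adjusted p = 0.0692), Psme2 at 0.41 (edgeR adjusted p = 0.0705) and Psmb4 at 0.39 (edgeR adjusted p = 0.0834). Psme2 passed without 24h replicate 3, with the difference still at 0.41. Psmb4 ranged from 249 to 267 TPM at 0h and from 287 to 309 at 3h, without overlap. In TPM, 6 members had 3h libraries all above the 0h libraries and 1, Psmd11, all below, against 3.36% and 20.6% of all genes tested. Psmb6 ranged from 276 to 286 TPM at 3h, above its 0h range of 248 to 267, and had an exact two-sided permutation p of 0.0286.

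Compared directly with 3h, 4 members rose at 24h and 1 fell, against 4.03% and 3.56% of all genes. All 4 were subunits of the 19S cap, and none of the 20S genes passed, though the difference between the subcomplexes was not tested. In TPM, 8 members had 24h libraries all above the 3h libraries and 1, Psmb10, all below, against 5.16% and 5.86% of all genes. Psmd11, a lid subunit, was at 35.5, 38.1, 36.3 and 38.3 TPM at 3h and at 52.6, 48.9, 46.6 and 48.1 at 24h, without overlap, and rose by 0.44 ± 0.10 (edgeR adjusted p = 0.00851). Its 3h libraries also lay below its 0h libraries, which ranged from 40.7 to 47.5 TPM, with a log2 difference of -0.06 on TMM-scaled counts. Psmd4 rose by 0.69 ± 0.16 (edgeR adjusted p = 0.0114), Psmc1 by 0.49 ± 0.13 (edgeR adjusted p = 0.0206) and Psmd12 by 0.40 ± 0.12 (edgeR adjusted p = 0.0376). Calls for Psmd4 and Psmd11 were kept in all 16 fits without 1 library. With Myl7 as a covariate Psmd4 was at 0.62 and Psmd11 at 0.41 and neither they nor any other member was called in edgeR, with 5 higher and 1 lower at an unadjusted p under 0.05. Without the 4 libraries rich in Myl7, which leaves 1 library at 24h, Psmd4 was at 0.18, Psmd11 at 0.21 and Psmb10 at -0.56. The median of the members turned from 0.15 to -0.07, with 16 of 45 positive. The call for Psmc1 was lost without 3h replicates 2 or 3 (0.46 and 0.47) or 24h replicates 1 or 4 (0.44 and 0.37). That for Psmd12 was lost without any 1 of the 3h libraries or without 24h replicates 1 or 4, where the difference ran from 0.29 to 0.44. The count of 4 became 10 without 24h replicate 3 and 2 without 3h replicates 2 or 3 or 24h replicates 1 or 4, and the count of 1 lower, Psmb10, became 0 in 11 of the 16.

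At 7d the summed level of the 45 genes lay between those of 0h and 24h. Against 0h, 1 member passed, Psmd13, where 0.184% of all genes rose and 0.676% fell. Psmd13 was at 78.9, 87.6, 80.4 and 81.4 TPM at 7d, above all 0h libraries, with a log2 difference of 0.45 ± 0.11 (edgeR adjusted p = 0.0478). The call was kept in 5 of the 16 fits without 1 library, those without a 24h library or 7d replicate 4, and the difference ran from 0.40 to 0.49 in the 16. Its exons overlap those of Sirt3 on the opposite strand. The median of the 45 members at 7d was 0.20, with 41 positive, and 10 members had an unadjusted p under 0.05 in edgeR, which is 22.2% of them against 15.3% of all genes. In TPM, 3 members, Psmd13, Psma3 and Psma6, had 7d libraries all above the 0h libraries and 0 all below, against 1.96% and 8.02% of all genes. The names were read off after their values were seen.

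From 24h to 7d, 7 members fell and 1 rose, against 4.34% and 3.74% of all genes. Those that fell were Psmd4 (-0.62 ± 0.16, edgeR adjusted p = 0.0206), Psma4 (-0.38 ± 0.10, edgeR adjusted p = 0.0242), Psmd11, Psma6, Psma7, Psmc1 and Psme4, and Psmb10 rose. Psma4 was at 181, 166, 167 and 170 TPM at 24h and at 140, 127, 162 and 147 at 7d, without overlap. Psmd11 was at 44.7, 44.6, 38.9 and 39.1 TPM at 7d, all below the 24h libraries (-0.36 ± 0.10, edgeR adjusted p = 0.0299). In TPM, Psmb10 and Psme3ip1 had 7d libraries all above the 24h libraries and Psma4 and Psmd11 all below, 2 members each way, against 6.15% and 3.27% of all genes. The other falls had overlapping libraries, mainly through 7d replicate 2, where Psmd4 was at 176 and Psmc1 at 311 TPM. Of the 7 that fell, 6 were among the 26 that rose from 0h to 24h, which is 85.7% of the former and 23.1% of the latter. The 2 comparisons share the 24h libraries. Atrial markers fell from 24h to 7d in 4 of 5 tested and neutrophil markers in 2 of 8. With Myl7 as a covariate edgeR called no member, with 1 higher and 0 lower at an unadjusted p under 0.05 and a median of -0.14. Without the 4 libraries rich in Myl7, which leaves 1 library at 24h, the median of the members turned from -0.21 to 0.01. Of the 45, 10 were positive in the fit reported and 24 in that fit. The count of 7 became 0 without 24h replicate 1, 24h replicate 4 or 7d replicate 1, 1 without 7d replicates 3 or 4, and 14 without 24h replicate 3. Over all 4 times, 17 of the 45 changed in edgeR's test of any difference, against 20.2% of all genes: 5 alpha genes, 4 ATPases, 6 other subunits of the 19S cap, Psmb10 and 1 beta gene without a catalytic site. Their number ran from 8 without 24h replicate 1 to 28 without 24h replicate 3, with 9 without 24h replicate 4 and 11 without 0h replicate 3.

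The 24h libraries were not alike. The median log2 difference of the 45 genes from their 0h mean was 0.57 in 24h replicate 1 and 0.56 in replicate 4, but 0.19 in replicate 2 and 0.18 in replicate 3. For the 17 subunits of the 19S cap the medians were 0.72, 0.23, 0.26 and 0.64 in replicates 1 to 4, and for the 15 constitutive 20S genes 0.62, 0.22, 0.20 and 0.60. Every 24h median lay above the 0h range for the 20S genes, -0.11 to 0.08, and for the 19S genes, -0.05 to 0.03. At 3h the constitutive 20S medians ran from 0.19 to 0.39, above those of the 19S cap in each of the 4 libraries. For the inducible catalytic genes the medians were -0.04, 0.15, -0.29 and -0.31 in 24h replicates 1 to 4, and the 0h range was -0.12 to 0.08. Replicates 3 and 4 lay below that range, replicate 1 within it and replicate 2 above it. The inducible medians were highest in 3h replicate 1 at 0.46 and 7d replicate 3 at 0.46.

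**Figure D4:**
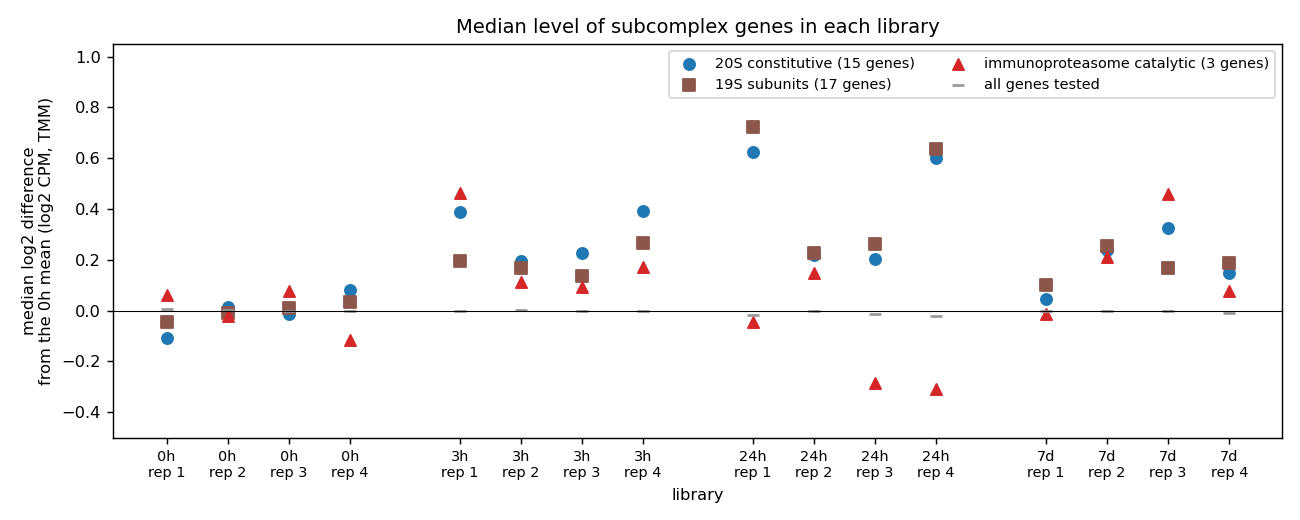
Median log2 difference from the 0h mean (y axis, TMM-scaled log2 CPM) of the constitutive 20S genes, the subunits of the 19S cap, the inducible catalytic genes and all genes tested, in each of 16 libraries (x axis). The 20S and 19S medians are near 0.6 to 0.7 in 24h replicates 1 and 4 and near 0.2 in 24h replicates 2 and 3, while all genes stay near 0.

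Markers of other cells and of atrial tissue differed between the same libraries. Myl7 was high in 24h replicates 1, 2 and 4 and low in replicate 3, whereas the proteasome medians were high in replicates 1 and 4 only. In 24h replicate 3, with Myl7 at 6.97 TPM, 19 of the 45 members lay above their 0h range in TPM, 19 within it and 7 below it. The members above the 0h range numbered 29, 22 and 27 in 24h replicates 1, 2 and 4. The share of all genes outside their 0h range was not counted, so these numbers have no base to be read against. On log2(TPM + 1) the median of all genes was -0.19 at 24h against 0h. With Myl7 as a covariate edgeR called, after adjustment, no member and 86 of all genes at 24h. At an unadjusted p under 0.05, 10 members were higher in that fit, and the share of all genes at that p is not given here. The median of the members was 0.33. Without the 4 libraries rich in Myl7, which leaves 1 library at 24h, the median was 0.18 and 40 of 45 were positive. Of the 6 atrial markers 5 were tested and 2 of these rose at 24h. All 5 were positive at 24h against 0h, with a median log2 difference of 3.34. The summed level of the atrial markers was 492 to 1506 TPM at 0h, 294 to 784 at 3h, 513 to 1048 at 24h and 561 to 2786 at 7d. This sum did not follow Myl7, which was at 0.78 TPM in 7d replicate 2, the library with the highest sum. Bmp10 was at 0 in every 0h library. Ventricular cardiomyocyte markers summed to 69450 to 72590 TPM at 0h and to 58710 to 67340 at 24h, with 1 of 8 lower and 0 higher. Of the 8 neutrophil markers tested 5 rose at 24h, and of 8 fibroblast markers 4 fell and 1 rose. Pan-leukocyte markers, of which edgeR called 0 of 9 with 2 at an unadjusted p under 0.05, summed to 147 to 186 TPM at 0h and 124 to 198 at 24h. Lymphocyte markers, of which 7 of 14 were tested and 0 called at 24h against 0h, with 0 at an unadjusted p under 0.05 in edgeR, summed to 27.9 to 37.6 TPM at 0h, 20.99 to 42.8 at 3h, 10.8 to 30.1 at 24h and 26.2 to 43.7 at 7d. Macrophage and monocyte markers summed to 1381 to 1677 TPM at 0h, 1421 to 1788 at 3h, 1022 to 1582 at 24h and 1326 to 1560 at 7d. Of the 10 tested, 1 fell from 3h to 24h, where 9 were negative and 3.56% of all genes fell. From 24h to 7d 1 rose, where 3.74% of all genes rose. Psmb10 fell and rose in these 2 comparisons, in which 0 of 9 pan-leukocyte and 0 of 7 lymphocyte markers were called. From 3h to 24h, 6 pan-leukocyte and 6 lymphocyte markers were negative, with median log2 differences of -0.06 and -0.87. In that comparison 3 and 2 of them had an unadjusted p under 0.05 in edgeR, as had 21.8% of all genes. From 24h to 7d, 7 and 5 were positive, with medians of 0.14 and 0.43. There 1 and 2 had such a p, against 22.6% of all genes. In bulk tissue, fewer cells of a type and less RNA per cell cannot be told apart, and the part of these markers in the proteasome result was not tested beyond these values.

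The scale matters for the size of these differences. In TPM, the median of all genes tested was -0.19 at 24h against 0h on log2(TPM + 1), and the median of the members was 0.16, with 31 of 45 positive and 9 higher and 1 lower in limma. On library totals without TMM the corresponding medians were -0.12 and 0.27, with 17 members higher. With the trend of fold change on gene length removed, the median of the members was 0.31 and 22 were higher, with 1 lower. The shares of all genes called in these fits are not given here, so the counts alone do not set the members apart from all genes. At 24h against 0h, Psmb8 and Psmb10 stayed negative and Psmb5, Psmb6 and Psmb7 positive in all 33 alternatives, and Psmb9 ran from -0.44 to 0.03. The alternatives reuse the same libraries, so a kept sign is no independent support. Psmb8 and Psmb9 were called in 0 of the 33, Psmb10 and Psmb5 in 3 each, Psmb6 in 18 and Psmb7 in 22. The lowest differences of Psmb5 and Psmb6 were 0.04 and 0.03.

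Other genes of the ubiquitin and proteasome pathway were counted in the same fit, in which 9.2% of all genes rose and 8.19% fell at 24h. Of the 5 chaperones that build the 20S core, only Pomp, which is needed to close the barrel, rose at 24h, from 54.8 ± 2.70 to 63.6 ± 12.0 TPM (n = 4; log2 difference 0.45, edgeR adjusted p = 0.0417). Of 11 tested partners and inhibitors of the 26S particle, 4 rose and 2 fell. Psmf1, an inhibitor of the 20S barrel, rose by 0.42 (edgeR adjusted p = 0.00965), Akirin2, which carries proteasomes into the nucleus, rose by 0.46 (edgeR adjusted p = 0.0170), and Ube3c, a ubiquitin ligase bound to the proteasome, fell by 0.47 (edgeR adjusted p = 0.0125). In the list of NFE2L1 activation 1 of 8 rose, Ngly1, the deglycosylase that processes this factor, by 0.32 (edgeR adjusted p = 0.0442). Among 11 shuttle factors and partners of VCP, 3 rose, among them Faf1 by 0.46 (edgeR adjusted p = 0.0218) and Ufd1 by 0.28 (edgeR adjusted p = 0.0458). The count of 1 of 8 is near the share of all genes. The median differences of these 4 lists were 0.18, 0.31, 0.21 and 0.26.

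Ubb, a polyubiquitin gene, was at 763 ± 45.2 TPM at 0h (n = 4), 736 ± 69.3 at 3h, 1050 ± 110 at 24h and 672 ± 68.1 at 7d. It rose by 0.69 at 24h (edgeR adjusted p = 0.00118) and fell by 0.77 from 24h to 7d (edgeR adjusted p = 0.000562). Uba6, an activating enzyme of ubiquitin, fell by 0.48 at 24h (edgeR adjusted p = 0.0345).

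On the side of antigen presentation, 0 of 12 genes of MHC class I processing passed in any of the 5 comparisons, with 0 at an unadjusted p under 0.05 at 24h in edgeR and 2 to 4 in the comparisons that involve 7d or set 24h against 3h. The median at 24h was -0.18. Of 12 genes of interferon signalling 1 fell at 24h, near the 8.19% of all genes that fell. It was Ifngr2, a chain of the interferon gamma receptor. Ifngr2 was at 253 ± 14.6 TPM at 0h (n = 4), 242 ± 5.58 at 3h, 132 ± 37.5 at 24h and 212 ± 20.6 at 7d. It fell by 0.75 from 0h to 24h (edgeR adjusted p = 0.000527) and rose by 0.58 from 24h to 7d (edgeR adjusted p = 0.00528).

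Counting limits touch some members. Exons of 15 of the 45 overlap exons of another gene, 13 of them on the opposite strand, and the strand setting of the counting is not given in the sources used here. Psmb9 overlaps Tap1, Psmb7 overlaps Nek6, Psmc3 overlaps Slc39a13 and Psma4 overlaps AY074887 in this way. Psme2b is a near-identical copy of Psme2, so reads of the 2 may have been split, and values of both are uncertain.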

How the data were processed

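RNA of 16 libraries, 4 at each of 0h, 3h, 24h and 7d, was measured by RNA-seq. Per the submitters' processing notes, reads were handled with cutadapt and STAR on mm10, and the kit was directional per the labels. The authors deposited 1 table with raw counts per gene, FPKM and TPM, labelled as without mitochondrial genes. TPM could be recomputed from the deposited counts and gene lengths within a relative 1e-06. Totals and TPM therefore refer to the genes in that table only. FPKM as deposited by the authors were not used for tests. Sample titles and column names differ in their prefix and were joined by time and replicate number.

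The 16866 genes that averaged at least 0.5 TPM entered 1 fit of the counts over all 16 libraries in edgeR 4.0.16 in R 4.3.3 (TMM scaling, robust quasi-likelihood F test, Benjamini-Hochberg threshold 0.05). TPM were used for levels, ratios and, as log2(TPM + 1), for exact permutation tests of the catalytic genes and for limma 3.58.1. DESeq2 1.42.0, limma-voom, other scalings, filters and left-out libraries were alternatives. The fit was also run on simulated data, and the recovery found there is not given here, so that run adds no support. The members, the gene lists and the alternatives were chosen with earlier results of these data known. Genes named with values were the catalytic genes, Psme1 to Psme4, up to 6 members of smallest p per comparison and direction among those called, the highest and lowest member of each subcomplex, and up to 3 called genes of each other list. Others are named because they belong to a count. Paaf1 was not analysed here. Some genes that the rule for named genes would give are not reported here. Totals of 8.31 to 12.9 M counts limit precision mainly for Psma8. The numbers in the labels did not pair the libraries: same-numbered libraries had correlations of their deviations from -0.12 to 0.06.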

Additional observations from a re-analysis of the deposited data

Results flagged for a closer look

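Of 180 groups of 4 values (45 genes at 4 times), 8 held 1 library that stood apart from the other 3 by Dixon's test, in TPM, and chance alone gives about 1 in 20 such groups. Psma1 was at 132 TPM in 0h replicate 3, against 119 to 120 in the others. Psmc4 was at 92.6 TPM in 3h replicate 1, against 105 to 106, and Psmc5 at 184 TPM in the same library, against 218 to 220. Psmb5 was at 241 TPM in 3h replicate 4, against 219 in each of the others. Psme4 was at 185 TPM in 24h replicate 3, against 127 to 129, and its fall from 24h to 7d was not called without that library. Among the 7d libraries, Psma6 was at 393 TPM in replicate 2 against 367 to 369, Psmb2 at 259 TPM in replicate 1 against 207 to 215, and Psmd9 at 12.2 TPM in replicate 3 against 8.92 to 9.32.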

How the results depend on the processing

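Counts of members called changed with the setting as follows, and the cause was not tested. The share of all genes called changed too, at 3h from 1.86% higher in the fit reported to 8.97% with only the 2 groups compared. For most settings that share is not given here, so a change in the members cannot be told from a change over all genes. With Myl7 as a covariate 0 members were called in each of the 5 comparisons and 1 over all times. With 3h replicate 3 and 24h replicates 1, 2 and 4 left out together, chosen after seeing the data, 24h kept 1 library, which is assumed to vary like the others: 8 rose at 3h, 0 at 24h, 2 at 7d against 0h, 0 changed in the other comparisons, and 4 over all times, and Psma6 and Psma7 changed sign from 24h to 7d (0.0084 and 0.0067). Hepatocyte markers summed to 11.2 to 17.1 TPM at 0h and to 19.8, 115.9, 108.5 and 41.3 TPM in 3h replicates 1 to 4. Without 3h replicates 2 and 3 together, 0 rose and 0 fell from 3h to 24h, 1 fell from 24h to 7d and 0 rose at 7d. The part of the hepatocyte markers in the values at 3h was not tested beyond that fit. At 3h, where 0 rose in the fit reported, 2 rose with every gene that had a count, 21 with only the 2 groups compared, 5 in DESeq2 and 10 in voom with array weights. At 24h against 0h, 17 rose on library totals, 9 in limma on log2(TPM + 1) and 9 on log2(TPM + 0.1), each of the latter with 1 lower, as with the gene length trend removed. At 7d against 0h, 2 rose with every gene that had a count and with 2 groups, and 0 on library totals, with a mean TPM of 2, without robust fitting, in limma, and with the length trend removed. From 3h to 24h, 2 rose with 2 groups and 0 fell in voom. From 24h to 7d, 0 rose with 2 groups and 2 in limma on TPM, and 4 fell on library totals, 4 with quantile scaling, 0 with 2 groups, 1 in limma on TPM and 3 in voom. Over all times 10 changed on library totals, 26 in DESeq2 and 8 in limma. With the replicate block, although the numbers did not pair the libraries, 24 rose at 24h against 0h, 0 rose at 7d, 3 rose and 0 fell from 3h to 24h, 1 rose and 5 fell from 24h to 7d, and 14 changed over all times. Leaving out 1 library gave 0 to 4 higher at 3h, 13 to 29 at 24h, 0 to 1 at 7d, 2 to 10 higher and 0 to 1 lower from 3h to 24h, 0 to 14 lower from 24h to 7d and 8 to 28 over all times. Of 3165 values of named genes under the alternatives, 224 lost a call and 51 gained one. Of these 3165, 101 changed sign, of which 99 belonged to differences not called in the fit reported, and the other 2 are those of Psma6 and Psma7. Depth limits Psma8.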
